A study of Mus musculus with 28 samples.

Results

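The Mdm2 feedback loop of p53 was followed in juvenile mouse ovaries through 6 genes, chosen by symbol and matched to their gene identifiers. They were Mdm2, Mdm4, Ppm1d, Ccng1, Ccng2 and Trp53inp1, 6 of the 44674 genes listed for bulk RNA. All 6 passed the filter on low counts, which left 26790 genes, and all 6 were among the 23527 genes found in single cells.

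p53 is a transcription factor that accumulates after DNA damage, and several of the genes it switches on act back on it. MDM2 binds p53 and marks it for degradation, and MDM4 is its close relative, which binds p53 and MDM2 without strong ligase activity of its own. PPM1D, also called WIP1, is a phosphatase that removes activating phosphates from p53 and from the kinases upstream of it. Cyclin G1, from Ccng1, brings the phosphatase PP2A to MDM2, and its paralog cyclin G2, from Ccng2, also binds PP2A and is better known as a FOXO target. TP53INP1 works in the other direction, since it assists kinases that activate p53. In the ovary the checkpoint kinase CHEK2 activates p53 and its relative TAp63 in oocytes with broken DNA.

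Bulk RNA was sequenced from paired ovaries of females aged 7 to 9 days, in 4 groups of 6 libraries and 24 in all. The methods name C57BL/6J mice, taken here as the wild type, and Chek2-/- females carried Chek2tm1b(EUCOMM)Hmgu, which is absent from the wild-type groups. The methods do not give the background of the Chek2-/- mice or say whether the wild-type females were littermates. Whole animals received sham treatment (non-irradiated) or 0.5 Gy of gamma rays (irradiated), and ovaries were taken 6 h later. For single cells the same 4 conditions had 1 library each, from the pooled ovaries of 4 females aged 7 days. The mutation is in every cell of the animal, so a difference between genotypes can arise in any cell type or earlier in development. Any difference in background between the genotypes cannot be told apart from the mutation.

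Bulk libraries held between 17825167 and 32605747 counts, and all 60 pairs of replicates differed by more than counting error (chi-square over its degrees of freedom between 6.25 and 60.5). Chek2 itself was between 18.5 and 24.6 CPM (counts scaled to a common library size) in the 12 wild-type libraries and between 2.88 and 4.53 CPM in the 12 Chek2-/- libraries, so every library matched its labelled genotype. Libraries stood apart in the summed CPM of marker lists. The oocyte list summed to 908 and 1024 CPM in replicate 6 of the Chek2-/- non-irradiated and irradiated groups, against 1638 to 2187 CPM in the other 22. Erythroid markers summed to 10445 CPM in Chek2-/- non-irradiated replicate 5 and 7047 CPM in Chek2-/- irradiated replicate 2, against at most 926 CPM elsewhere. Neutrophil and lymphocyte markers summed to 843 CPM in wild-type irradiated replicate 3 and 854 CPM in Chek2-/- irradiated replicate 2, against at most 10.0 CPM elsewhere. In whole-ovary RNA, fewer cells of a type and less RNA per cell cannot be told apart.

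The stretches just upstream of the transcription starts are shown because p53 binds paired half-sites near many genes it activates. The windows searched differed in whether a single half-site was present. On GRCm38 the genes lie at chr10:117688875-117710758 on the minus strand (Mdm2, ENSMUSG00000020184), chr1:132959484-133030561 minus (Mdm4, ENSMUSG00000054387), chr11:85311244-85347066 plus (Ppm1d, ENSMUSG00000020525), chr11:40748552-40755311 minus (Ccng1, ENSMUSG00000020326), chr5:93267257-93276231 plus (Ccng2, ENSMUSG00000029385) and chr4:11156431-11174379 plus (Trp53inp1, ENSMUSG00000028211). RefSeq start sites on GRCm38.p6 were at hand for 5 of the 6 members, with 6 start sites in all since Mdm4 has a pair, and the 250 bases before each were searched on both strands. The p53 half-site consensus was found in the windows of Mdm2, Ppm1d and Ccng1. Each of these windows held 1 match, so no pair of half-sites was found. Sequence after the start sites was not searched. It was not found in either window of Mdm4 or in that of Ccng2. The Ccng2 start site used (chr5:93267573) lies inside the gene, and its window begins within an annotated exon. No sequence upstream of the Ccng2 gene was thus searched. Of 32851 mouse promoters of the same length, 7.13% held the half-site. The FOXO core GTAAACA was in the Mdm2 window, 153 to 147 bases before the start, and in 3.17% of all promoters. The GC-box core GGGCGG was in the windows of Mdm2, Ppm1d and Ccng2, and in 32.7% of all promoters. No half-site overlapped another of these motifs. The stretches of Mdm2 (chr10:117710759-117711008, minus strand), Ccng1 (chr11:40755312-40755536, minus strand, ended where the first exon begins), Ppm1d (chr11:85311004-85311243, plus strand, likewise) and, as one without a match, Mdm4 (chr1:133030588-133030837, minus strand) are written from 5′ to 3′ along each gene, with the half-site in capitals:
Mdm2: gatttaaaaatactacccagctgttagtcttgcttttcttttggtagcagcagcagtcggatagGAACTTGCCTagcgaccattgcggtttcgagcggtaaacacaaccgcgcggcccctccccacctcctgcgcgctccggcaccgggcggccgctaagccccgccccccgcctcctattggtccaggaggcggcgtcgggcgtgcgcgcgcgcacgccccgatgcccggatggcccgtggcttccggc
Ccng1: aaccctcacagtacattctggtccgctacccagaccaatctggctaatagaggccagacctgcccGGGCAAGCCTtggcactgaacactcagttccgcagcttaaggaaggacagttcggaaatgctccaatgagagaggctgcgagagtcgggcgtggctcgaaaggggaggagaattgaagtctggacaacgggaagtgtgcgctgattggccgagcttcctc
Ppm1d: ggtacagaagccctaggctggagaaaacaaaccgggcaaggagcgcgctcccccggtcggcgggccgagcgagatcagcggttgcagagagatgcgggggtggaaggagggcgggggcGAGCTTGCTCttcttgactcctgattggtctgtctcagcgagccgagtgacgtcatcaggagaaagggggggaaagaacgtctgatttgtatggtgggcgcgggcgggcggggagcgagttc
Mdm4: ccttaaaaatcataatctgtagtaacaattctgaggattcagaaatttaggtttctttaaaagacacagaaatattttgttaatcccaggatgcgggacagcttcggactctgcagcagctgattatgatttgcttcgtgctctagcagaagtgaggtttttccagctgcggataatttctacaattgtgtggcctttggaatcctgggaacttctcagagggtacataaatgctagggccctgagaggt
The half-site of Mdm2 (chr10:117710935-117710944) lies 186 to 177 bases before the start, that of Ccng1 (chr11:40755462-40755471) 185 to 176 bases before it and that of Ppm1d (chr11:85311122-85311131) 132 to 123 bases before it. A match of letters is not a binding site, and binding was not measured in these data.

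The first comparison asked how irradiation changed the 6 genes in wild-type ovaries. Mdm2, Ccng1, Trp53inp1 and Ppm1d rose, and every irradiated library was above every non-irradiated library for each of them. Such separation of groups was not counted over all genes, here or in the other comparisons. Mdm4 and Ccng2 did not pass the test. These 4 of 6 compare with 2.41% of all 26790 genes past the same threshold, an edgeR adjusted p of at most 0.05, and with 1.53% past it in the upward direction. For 3 of the 6 the change was at least 2-fold, against 1.08% of all genes. The authors had reported Mdm2, Ccng1 and Trp53inp1 as raised in these libraries. Counts of the 6 genes, here and in the other comparisons, are thus no independent test. The median log2 fold change was 0.82 over the 6 genes and -0.00 over all genes tested.

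**Figure D1:**
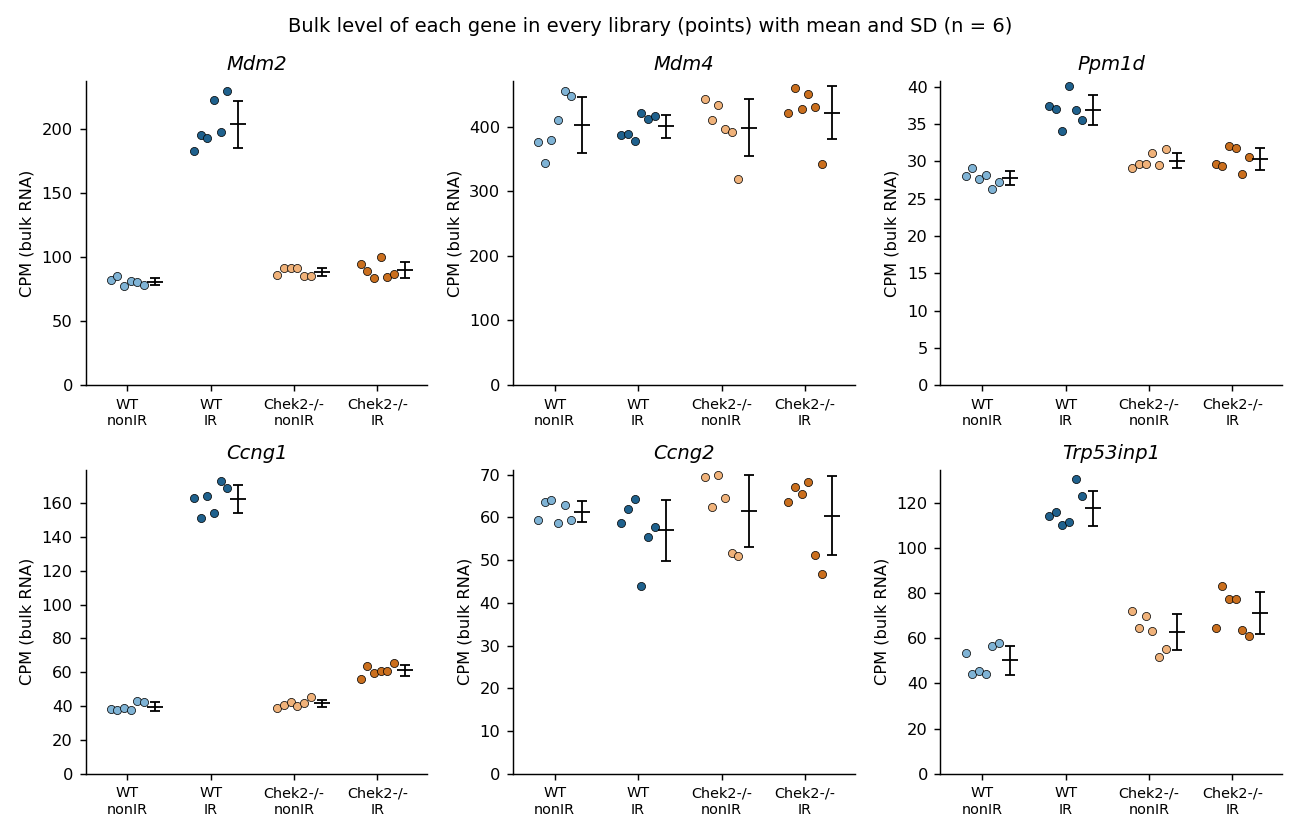
CPM of each gene in bulk RNA on the y axis, starting at 0, by group on the x axis, with 1 point per library and the mean and SD of 6 libraries beside the points. The wild-type irradiated libraries stand above all others for Mdm2, Ccng1, Trp53inp1 and Ppm1d, while the groups overlap for Mdm4 and Ccng2, and Ccng1 is also higher in irradiated than in non-irradiated Chek2-/- ovaries.

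Mdm2, the main inhibitor of p53, was lowest at 77.2, had a median of 81.2 and was highest at 85.1 CPM in non-irradiated wild-type ovaries. After irradiation the lowest, median and highest values were 183, 196 and 230 CPM. No irradiated library came near the non-irradiated range. Group means were 80.8 ± 2.87 and 204 ± 18.5 CPM (SD, n = 6), a 2.52-fold rise (log2 fold change 1.33, SE 0.05, edgeR adjusted p = 1.19e-14). Its rank by p was 2 of all genes tested.

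Mdm4, its partner, was between 344 and 455 CPM without irradiation (median 394) and between 377 and 420 CPM after it (median 401). The irradiated libraries lay entirely inside the range of the non-irradiated ones. The log2 fold change was -0.01 with a 95% confidence interval of -0.17 to 0.16 (edgeR adjusted p = 0.999).

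Ppm1d, the phosphatase, changed least among the 4 that rose. Its lowest, median and highest values were 26.4, 27.8 and 29.1 CPM without and 34.0, 37.0 and 40.1 CPM with irradiation. Means were 27.8 ± 0.936 and 36.9 ± 2.02 CPM (SD, n = 6), and the groups did not overlap. The rise was 1.33-fold (log2 0.41, SE 0.04, edgeR adjusted p = 6.35e-07).

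Ccng1 had the smallest p of all genes tested. It was between 37.4 and 43.2 CPM without irradiation (median 38.8) and between 151 and 173 CPM with it (median 164), a 4.09-fold rise (log2 2.03, SE 0.05, edgeR adjusted p = 2.61e-19). Its paralog Ccng2 was between 58.7 and 64.1 CPM (median 61.2) and then between 43.9 and 64.2 CPM (median 58.3). The Ccng2 groups overlapped, with 3 of 6 irradiated libraries below all non-irradiated ones and 1 above them, and the log2 fold change was -0.10 (95% confidence interval -0.31 to 0.10, edgeR adjusted p = 0.818).

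Trp53inp1, the activator of p53 in the set, was between 44.1 and 57.7 CPM without irradiation (median 49.5) and between 110 and 130 CPM after it (median 115). The lowest irradiated library was far above the highest non-irradiated one. The rise was 2.34-fold (log2 1.23, SE 0.09, edgeR adjusted p = 1.84e-09).

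The second comparison asked which of these changes were made without CHEK2. In Chek2-/- ovaries 1 of the 6 genes passed the test, Ccng1, against 0.0112% of all genes (3 genes). Ccng1 was between 39.1 and 45.3 CPM in non-irradiated (median 41.0) and between 56.2 and 65.6 CPM in irradiated Chek2-/- ovaries (median 60.8). The groups did not overlap, and the rise was 1.47-fold (log2 0.56, SE 0.05, edgeR adjusted p = 6.82e-07), the smallest p of all genes in this comparison too. The irradiated Chek2-/- libraries nevertheless stayed far below the irradiated wild-type libraries.

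Mdm2 was between 85.2 and 91.5 CPM in non-irradiated (median 88.8) and between 83.7 and 99.8 CPM in irradiated Chek2-/- ovaries (median 87.9), and the groups overlapped. Its log2 fold change was 0.02, and the 95% confidence interval of -0.09 to 0.13 excludes a rise of the wild-type size. Ppm1d was between 29.1 and 31.7 CPM and then between 28.3 and 32.0 CPM, with a log2 fold change of 0.01 (95% confidence interval -0.08 to 0.10). Trp53inp1 was between 51.6 and 72.2 CPM (median 63.9) and between 61.1 and 83.4 CPM (median 70.9), where 3 of 6 irradiated libraries were above all non-irradiated ones. Its log2 fold change of 0.18 had a 95% confidence interval of -0.01 to 0.37 (edgeR adjusted p = 1). For Mdm4 the change was 0.08 (95% confidence interval -0.08 to 0.24) and for Ccng2 it was -0.03 (95% confidence interval -0.23 to 0.18).

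The change of the mean CPM in Chek2-/- ovaries was 12.6% of the wild-type change for Trp53inp1 and 2.43% for Ppm1d. For Ccng1 the means moved from 41.5 ± 2.17 to 61.1 ± 3.30 CPM (SD, n = 6) in Chek2-/- and from 39.7 ± 2.52 to 162 ± 8.33 CPM in wild-type ovaries. The difference between the effects in the 2 genotypes was tested itself, as an interaction. The same 4 genes passed, against 1.03% of all genes. The wild-type effect exceeded the Chek2-/- effect by 1.47 on the log2 scale for Ccng1 (SE 0.07, edgeR adjusted p = 8.12e-13), by 1.31 for Mdm2 (SE 0.07, edgeR adjusted p = 4.10e-11), by 1.04 for Trp53inp1 (SE 0.13, edgeR adjusted p = 2.70e-05) and by 0.40 for Ppm1d (SE 0.06, edgeR adjusted p = 4.52e-04). For Mdm4 the difference was -0.09 (95% confidence interval -0.32 to 0.14) and for Ccng2 it was -0.08 (-0.37 to 0.21).

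**Figure D2:**
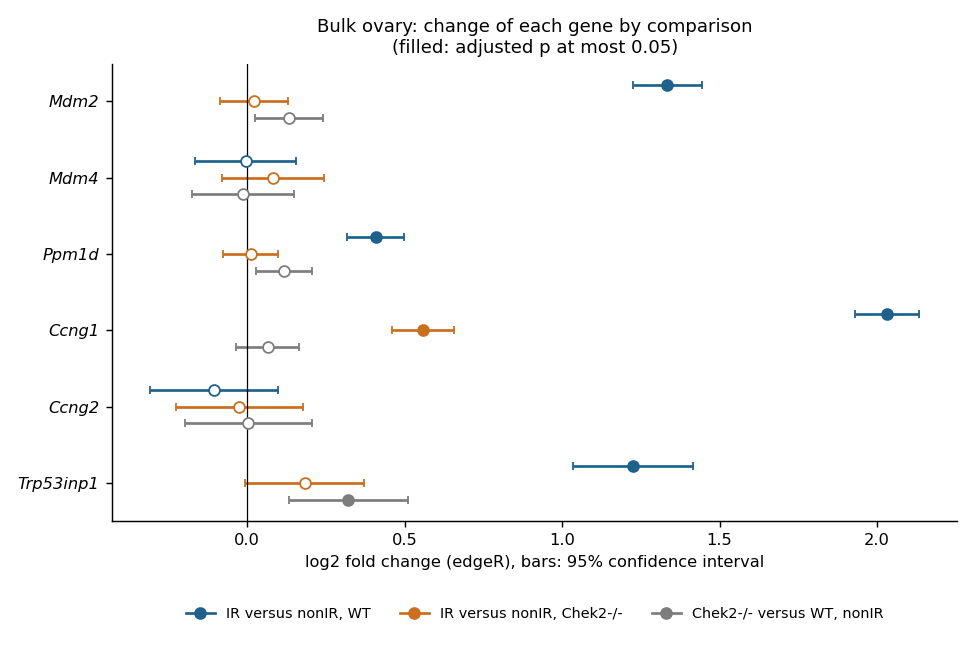
Log2 fold change of each gene (x axis) with its 95% confidence interval from edgeR, for irradiation in wild-type ovaries, irradiation in Chek2-/- ovaries and genotype without irradiation. Filled points have an adjusted p of at most 0.05, and Ccng1 is the gene whose points are filled in both genotypes after irradiation.

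Without irradiation the genotypes were close. Trp53inp1 alone among the 6 passed the test, against 5.34% of all genes, with a log2 fold change of 0.32 in Chek2-/- over wild-type ovaries (SE 0.09, edgeR adjusted p = 0.0404). The groups overlapped, with 4 of 6 Chek2-/- libraries above all wild-type ones, and the call was lost when any of 7 libraries was left out, with the 2 groups fitted alone (edgeR adjusted p = 0.0932) and by limma-voom (adjusted p = 0.0514). Mdm2 was higher in all 6 Chek2-/- libraries than in any wild-type library, at 88.5 ± 3.23 against 80.8 ± 2.87 CPM (SD, n = 6), but the log2 difference of 0.13 did not pass over all genes (95% confidence interval 0.02 to 0.24, edgeR adjusted p = 0.139). Ppm1d was higher by 0.12 on the log2 scale (edgeR adjusted p = 0.113), with 5 of 6 libraries above the wild-type range. Mdm4, Ccng1 and Ccng2 differed by -0.01, 0.06 and 0.00. The lowest Mdm4 value of either Chek2-/- group, 319 and 342 CPM, was in replicate 6, the library with the lowest oocyte marker sum of its group. The 2 lowest Ccng2 values of either Chek2-/- group were in replicates 5 and 6, and the part of tissue makeup in these values was not tested.

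The wider pathway was read through 6 lists, which were chosen with earlier results of these data known. Genes the authors had reported as raised in these libraries, such as Eda2r, Bbc3 and Cdkn1a, are among the p53 targets. The counts of that list are thus no independent test. Of 30 other p53 target genes, 19 rose in irradiated wild-type ovaries by edgeR, against 1.53% of all genes, and 0 fell (0 also by limma-voom, by DESeq2 and at an unadjusted p under 0.05). Their median log2 fold change was 0.54 against -0.00 over all genes tested. The 3 with the smallest p were Eda2r, a receptor of the TNF receptor family (log2 1.78), Bbc3, which encodes the cell death protein PUMA (1.89), and Phlda3, an inhibitor of AKT (1.21). In Chek2-/- ovaries 1 of the 30 passed, Eda2r (0.53), against 0.0112% of all genes, while 8 were higher and 0 lower at an unadjusted p under 0.05. The share of all genes at an unadjusted p under 0.05 was not counted, here or for the lists below. For the interaction 17 passed, against 1.03% of all genes, all with the larger rise in wild-type ovaries. Without irradiation 3 of the 30 were called between the genotypes (Btg2, Cdkn1a and Gdf15, higher in Chek2-/- ovaries), where 5.34% of all genes were, so no more is read from this count.

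Of 11 genes of the p53 family and its upstream kinases, 1 rose, against 1.53% of all genes. It was Trp73 (log2 2.80, SE 0.26, edgeR adjusted p = 8.39e-08), which encodes the relative p73. The authors had reported Trp73 as raised in these libraries, so this count is no independent test either. Trp53 itself moved by -0.06 (edgeR adjusted p = 0.803) and Trp63, which encodes the oocyte protein TAp63, by -0.41 (edgeR adjusted p = 0.0816). The sum of a list of primordial oocyte markers was between 271 and 359 CPM in irradiated and between 354 and 480 CPM in non-irradiated wild-type ovaries, and its part in the Trp63 value was not tested. Of 18 MDM2 partners and other modifiers of p53, 0 rose by edgeR (0 also by limma-voom, by DESeq2 and at an unadjusted p under 0.05) and 1 fell, Cop1, another ubiquitin ligase of p53 (-0.16, edgeR adjusted p = 0.0433). As 2.41% of all genes passed there, no more is read from 1 gene of 18. At an unadjusted p under 0.05, 4 of the 18 were lower in wild-type ovaries, and for the interaction 5 were below 0 and 1 above it. Without the share over all genes, no more is read from these counts. The acetyltransferase gene Ep300 had an interaction of -0.33 on the log2 scale (edgeR adjusted p = 0.0287), where 1.03% of all genes passed.

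Of 10 partners of cyclin G and subunits of PP2A, likewise 0 rose by edgeR, limma-voom, DESeq2 or at an unadjusted p under 0.05, and 1 fell, Ppp2r5a, a regulatory subunit of PP2A (-0.60, SE 0.11, edgeR adjusted p = 0.00104). The share over all genes was again 2.41%. The interaction for Ppp2r5a was -0.67 (edgeR adjusted p = 0.0249), where 1.03% of all genes passed. By edgeR 0 genes passed among 8 paralogs of the members and 0 among 12 FOXO factors and FOXO-regulated genes, with 0 of either list at an unadjusted p under 0.05 and 0 called by limma-voom or DESeq2. In irradiated Chek2-/- ovaries 0 genes of the 5 lists other than the p53 targets passed by edgeR, limma-voom or DESeq2, and at an unadjusted p under 0.05 there were 2, both MDM2 partners or p53 modifiers that were higher. Between the genotypes without irradiation, where 5.34% of all genes were called, the calls were Sirt1 (higher in Chek2-/- ovaries), Trim24 and Pml (lower) of the 18 MDM2 partners and p53 modifiers, Ppp2cb (higher) of the 10 cyclin G and PP2A partners, Pink1 (lower) of the 12 FOXO genes and Chek2 (lower) of the 11 genes of the p53 family and upstream kinases.

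The genes most like each of the 4 in pattern were found by the root-mean-square difference of centred log2 CPM over the 24 libraries, among 15950 genes with a mean of at least 1 CPM. For Mdm2 they were Ripk4 (0.172), Phlda3 (0.188) and Gtse1 (0.192), where the median gene was at 0.577. For Ccng1 they were Eda2r (0.149), Fam212b (0.218) and Bbc3 (0.222), and Eda2r, like Ccng1, was higher in irradiated Chek2-/- (23.3 CPM) than in non-irradiated Chek2-/- ovaries (16.2 CPM). For Trp53inp1 they were Bag4 (0.200), Zmat3 (0.209) and Polk (0.233). For Ppm1d they were Ctnnal1, Csrnp2 and Csnk1g1, between 0.0845 and 0.0879, where the median gene was at 0.237. The median gene was at 0.844 for Ccng1 and at 0.514 for Trp53inp1, so the distances are not on a common scale between members.

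Single-cell libraries gave the level of each gene by cell type. After filters, 9252, 9799, 8678 and 8726 cells were used from the wild-type non-irradiated, wild-type irradiated, Chek2-/- non-irradiated and Chek2-/- irradiated libraries, 36455 in all, with medians of 13909, 14494, 15522.5 and 17064 UMIs (counted molecules) per cell. Pairs of libraries shared between 15 and 31 cell barcodes. Clusters were made without the members and the genes of the pathway lists and named from marker genes, which gave 9 classes. Fibroblast-like (18596 cells) and granulosa-like cells (13187) were the most numerous, and 581 cells were oocyte-like, 195, 172, 75 and 139 in the 4 libraries. The oocyte-like cluster passed all 8 oocyte markers, with Ooep, Dppa3 and Zp3 leading. When clustered again, 94, 107 and 66 of these cells fell in sub-clusters that also passed 4, 6 and 5 granulosa markers. These sub-clusters held 55, 48 and 13 wild-type non-irradiated and 1, 28 and 37 wild-type irradiated cells. A level is the sum of a gene's UMIs in a class per 10000 UMIs of that class. With 1 library per condition there is no test, and the intervals cover counting error only.

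Chek2 in oocyte-like cells was at 0.180 and 0.171 UMIs per 10000 in wild-type and at 0.0539 and 0.0359 in Chek2-/- libraries, so the labels held there too. The tags sit near the 3′ end of the RNA, and whether they lie outside the deleted part was not examined.

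Mdm2 differed most between cell types. In wild-type oocyte-like cells its level was 0.794 without irradiation, from 2295 UMIs, and 8.30 with it, from 11152 UMIs. The ratio of 10.5 (95% interval 9.99 to 10.9) was far above those of granulosa-like cells (0.401 to 0.617, ratio 1.54, 1.47 to 1.61) and fibroblast-like cells (0.321 to 0.489, ratio 1.52, 1.44 to 1.61). The remaining classes lay between 1.30 in epithelial-like and 2.52 in macrophage-like cells, the latter with an interval of 1.47 to 4.61. In Chek2-/- oocyte-like cells the levels were 0.740 and 0.799, a ratio of 1.08 (0.993 to 1.18), and in granulosa-like cells the ratio was 0.993 (0.945 to 1.04). It was 1.10 (1.03 to 1.17) in Chek2-/- fibroblast-like cells and 3.11 (1.19 to 10.3) in Chek2-/- erythroid-like cells, the latter on 5 and 29 UMIs, and in the other Chek2-/- classes the intervals included 1. In the wild-type non-irradiated library oocyte-like cells already had the highest Mdm2 level of any class. The other classes there were between 0.315 and 0.443, and among them the intervals overlapped except that granulosa-like cells were above fibroblast-like and epithelial-like cells. In the Chek2-/- non-irradiated library the interval of oocyte-like cells (0.692 to 0.790) overlapped that of macrophage-like cells (0.333 to 0.822, on 21 UMIs).

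**Figure D3:**
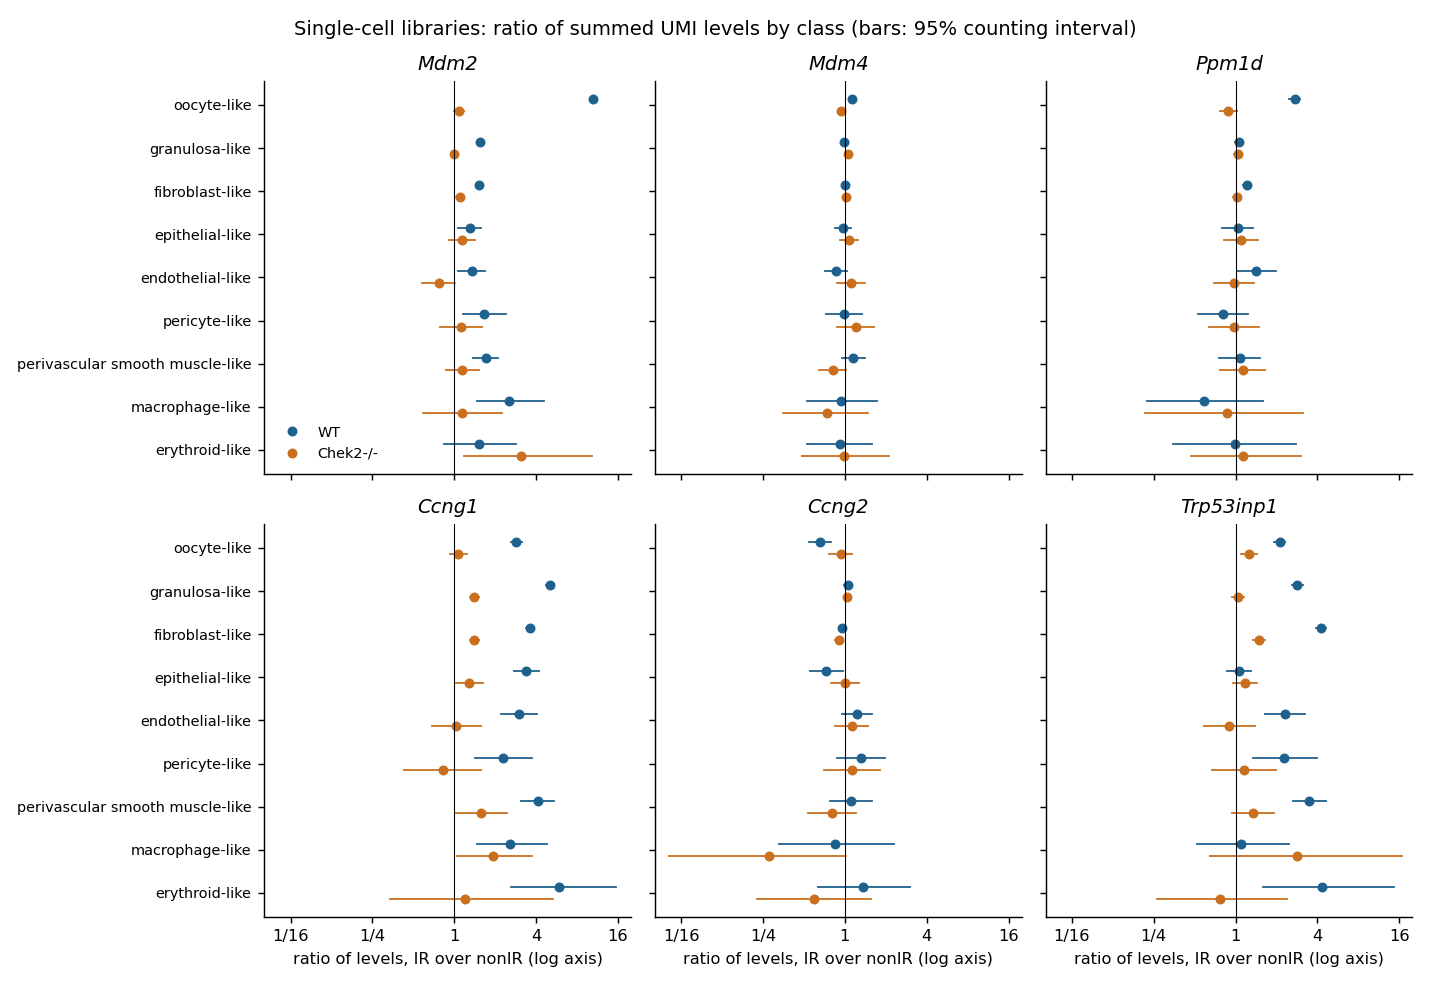
Ratio of the irradiated to the non-irradiated level of each gene (x axis, log scale) in the 9 classes of cells (y axis), for wild-type and Chek2-/- libraries, with 95% counting intervals and 1 library per condition. For Mdm2 the wild-type oocyte-like cells lie at 10.5 with no other wild-type class above 2.52, while for Ccng1 and Trp53inp1 the granulosa-like and fibroblast-like cells lie above the oocyte-like cells, for Ccng1 in fibroblast-like cells not when each cell has the same weight.

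Mdm4 also had its highest level in oocyte-like cells, at 2.53 UMIs per 10000 in the wild-type non-irradiated library against 0.471 to 0.650 in the other 8 classes. Its ratio after irradiation was 1.12 (1.08 to 1.17) in wild-type oocyte-like cells, 0.985 (0.943 to 1.03) in granulosa-like and 1.01 (0.962 to 1.06) in fibroblast-like cells. In Chek2-/- oocyte-like cells it was 0.936 (0.896 to 0.979). When each oocyte-like cell was given the same weight, the wild-type ratio was 0.680, so no direction was read for Mdm4 in these cells.

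In the wild-type non-irradiated library Ppm1d was highest in pericyte-like cells (0.388, 0.293 to 0.503), then in oocyte-like (0.285, 0.266 to 0.305) and fibroblast-like cells (0.268, 0.255 to 0.280), and neighbours in this order had overlapping intervals. In the Chek2-/- non-irradiated library the order of the first pair turned, at 0.278 (0.205 to 0.368) in pericyte-like and 0.303 (0.273 to 0.336) in oocyte-like cells. After irradiation its wild-type ratio was 2.72 (2.48 to 2.99) in oocyte-like cells, from 0.285 to 0.777. Of the 1045 irradiated UMIs, 901 lay in a sub-cluster of 63 cells found in that library alone. Sub-clusters with at least 10 cells in both wild-type libraries had ratios from 0, on 0 irradiated UMIs, to 1.84 (0.953 to 3.35), with intervals that included 1. As for Mdm2 below, these are no measure of the response of comparable cells. In other classes the ratios were lower. The wild-type ratio was 1.21 (1.14 to 1.29) in fibroblast-like cells and 1.05 (0.982 to 1.13) in granulosa-like cells. In Chek2-/- oocyte-like cells the levels were 0.303 and 0.269, a ratio of 0.886 (0.771 to 1.02).

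For Ccng1 the summed ratios were ordered the other way. Its wild-type ratio was 5.09 (4.76 to 5.46) in granulosa-like cells, from 0.134 to 0.681, and 3.59 (3.36 to 3.83) in fibroblast-like cells, from 0.171 to 0.611. In oocyte-like cells it was 2.87 (2.62 to 3.15), from 0.278 to 0.799, so the level after irradiation was still higher there. With each cell given the same weight, the ratio was 4.41 in oocyte-like, 3.66 in fibroblast-like and 5.50 in granulosa-like cells, so the order of the first pair turned. In every named class the wild-type interval lay above 1. In Chek2-/- libraries the ratio was 1.41 in both granulosa-like (1.30 to 1.53) and fibroblast-like cells (1.30 to 1.52) and 1.07 (0.932 to 1.23) in oocyte-like cells. The Chek2-/- intervals also lay above 1 in epithelial-like (1.29, 1.02 to 1.64), perivascular smooth muscle-like (1.56, 1.01 to 2.43) and macrophage-like cells (1.95, 1.04 to 3.72), and included 1 in the other named classes. Among the oocyte-like cells, the largest sub-cluster (110 cells) had a Chek2-/- ratio of 1.40 (1.07 to 1.83), and the other 2 with at least 10 cells in both Chek2-/- libraries had 1.18 (0.847 to 1.67) and 0.933 (0.710 to 1.23). The sub-cluster at 1.18 also passed 4 granulosa markers. Within the granulosa-like class, the dividing cells, the Amh cells and the cells led by Calb1 and Igfbp2 had Chek2-/- ratios of 1.41 (1.19 to 1.68), 1.57 (1.38 to 1.79) and 1.38 (1.19 to 1.61), and the cells led by Akr1c18 had 1.37 (1.01 to 1.88).

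In the wild-type non-irradiated library Ccng2 levels ran from 0.155 in perivascular smooth muscle-like, 0.166 in oocyte-like and 0.189 in epithelial-like cells, whose intervals overlap with each other and with those of macrophage-like and erythroid-like cells, to 0.332 (0.245 to 0.440) in pericyte-like cells. In the Chek2-/- non-irradiated library pericyte-like cells were at 0.208 (0.146 to 0.289) and epithelial-like cells at 0.255 (0.216 to 0.300), so this order did not hold there. Ccng2 also varied within classes. In the wild-type non-irradiated library it was at 0.464 (0.434 to 0.495) in dividing fibroblast-like cells against 0.177 (0.162 to 0.193) in the largest cluster of other fibroblast-like cells. In granulosa-like cells it was at 0.344 (0.318 to 0.372) in the dividing cells and at 0.323 (0.277 to 0.374) in the cells led by Akr1c18, which passed 0 division markers. The other granulosa-like cells without division markers were at 0.197 (those led by Calb1 and Igfbp2) and 0.133 (the Amh cells). The part of division in these levels was not tested. After irradiation the wild-type ratio was 1.05 (0.981 to 1.12) in granulosa-like and 0.960 (0.898 to 1.03) in fibroblast-like cells. In oocyte-like cells it was 0.656 (0.541 to 0.791), on 479 and 146 UMIs, and in epithelial-like cells 0.730 (0.553 to 0.964). Within classes, the Amh cells had 1.19 (1.03 to 1.37) and the dividing fibroblast-like cells 0.886 (0.807 to 0.972). In Chek2-/- libraries the ratio was 0.930 (0.769 to 1.12) in oocyte-like and 1.00 (0.792 to 1.27) in epithelial-like cells. It was 1.04 (0.977 to 1.11) in granulosa-like and 0.906 (0.846 to 0.971) in fibroblast-like cells.

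In the wild-type non-irradiated library Trp53inp1 was at 0.315 (0.295 to 0.336) in oocyte-like and 0.300 (0.255 to 0.350) in epithelial-like cells, whose intervals overlap, and at 0.0983 and 0.0980 in granulosa-like and fibroblast-like cells. In macrophage-like cells it rested on 11 UMIs (0.305, 0.152 to 0.545) there and on 3 UMIs (0.0768, 0.0158 to 0.224) in the Chek2-/- non-irradiated library, so they were given no place in the order. Its wild-type ratio was 4.22 (3.88 to 4.60) in fibroblast-like cells, and within them the dividing cells had 6.48 (5.20 to 8.16), from 0.0464 to 0.301. Granulosa-like cells had 2.85 (2.62 to 3.11) and oocyte-like cells 2.11 (1.92 to 2.32). Within the granulosa-like class the wild-type ratio was 4.85 (4.08 to 5.80) in the Amh cells, 2.62 (2.07 to 3.34) in the dividing cells, 2.04 (1.67 to 2.49) in the cells led by Akr1c18 and 2.03 (1.79 to 2.32) in those led by Calb1 and Igfbp2, of which there were 900 and 1449 in the non-irradiated and irradiated library. In epithelial-like cells, where Ccng1 had a ratio of 3.38 (2.74 to 4.20), Trp53inp1 was at 0.300 and 0.319, a ratio of 1.06 (0.870 to 1.30). In Chek2-/- libraries the ratio was 1.49 (1.35 to 1.66) in fibroblast-like, 1.25 (1.09 to 1.44) in oocyte-like and 1.05 (0.948 to 1.15) in granulosa-like cells. Within the granulosa-like class the Chek2-/- ratios were higher than for the class as a whole, at 1.25 (0.932 to 1.68) in the dividing cells, 1.20 (1.000 to 1.43) in the Amh cells, 1.34 (1.00 to 1.80) in the cells led by Akr1c18 and 1.19 (1.03 to 1.38) in those led by Calb1 and Igfbp2. The last cells, at a higher Trp53inp1 level than the Amh cells, were 1120 and 833 in the Chek2-/- non-irradiated and irradiated libraries, against 1333 and 1640 of the Amh cells, so the class ratio mixes levels with the makeup of the class. The dividing fibroblast-like cells had a Chek2-/- ratio of 2.56 (1.95 to 3.39), from 0.0349 to 0.0893 on 70 and 233 UMIs.

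These differences between classes show in the summed libraries. Oocyte-like cells were 2.11% of the wild-type non-irradiated cells and 1.76% of the irradiated cells, and held 15.6% and 7.52% of all UMIs. They held 29.0% of the Mdm2 UMIs without and 55.1% with irradiation. Over all cells the wild-type ratio of Mdm2 was 2.65 (2.58 to 2.72), and without the oocyte-like cells it was 1.53 (1.48 to 1.58). For Ccng1 the ratio was 3.79 over all cells and 4.19 without oocyte-like cells, for Trp53inp1 2.62 and 3.17, and for Ppm1d 1.24 and 1.12. The Mdm4 ratio of 0.840 over all cells became 0.996 without oocyte-like cells, which had held 45.6% of its UMIs in the non-irradiated library.

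**Figure D4:**
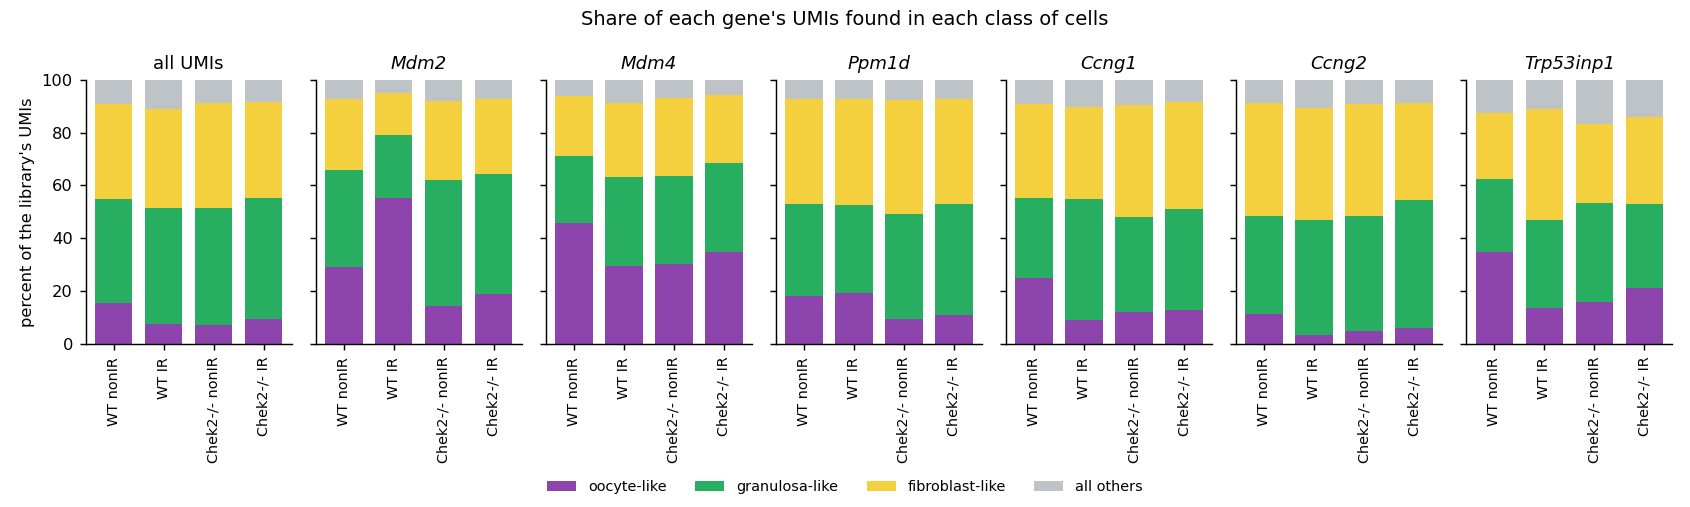
Percent of the UMIs of each library (y axis, from 0 to 100) that lie in oocyte-like, granulosa-like, fibroblast-like and all other cells, for all UMIs and for each gene, with 1 bar per library. The oocyte-like share of Mdm2 is 55.1% in the wild-type irradiated library, where the oocyte-like share of all UMIs is 7.52%, and 29.0% in the wild-type non-irradiated library, where it is 15.6%.

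RNA from oocytes in other classes, such as free RNA, was estimated from oocyte genes in those classes. The UMIs of 6 oocyte genes (Ooep, Zp2, Zp3, Padi6, Gdf9 and Dppa3) in granulosa-like cells were 0.618% of their oocyte-like level in the non-irradiated and 0.242% in the irradiated wild-type library. At these shares oocyte Mdm2, taken at its level over all oocyte-like cells, would give 0.00490 and 0.0200 UMIs per 10000. This leaves 0.396 and 0.597 for granulosa-like cells. For fibroblast-like cells the levels less that share were 0.314 and 0.468. In epithelial-like cells they were 0.304 and 0.332, closer than the 0.315 and 0.409 before it. In macrophage-like cells the oocyte genes were at 0.707% and 3.50% of their oocyte-like level, and the Mdm2 levels of 0.443 and 1.12 became 0.437 and 0.827 less that share. The shares thus differed between classes of a library, and the source of this RNA was not tested.

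The Mdm2 level was spread widely among the irradiated oocyte-like cells. Among those with at least 10000 UMIs (165, 92, 69 and 103 cells), the median was 0.715 in wild-type non-irradiated, 7.59 in wild-type irradiated, 0.734 in Chek2-/- non-irradiated and 0.741 UMIs per 10000 in Chek2-/- irradiated cells. The quartiles were 0.554 and 0.942 in the wild-type non-irradiated library and 4.31 and 11.2 in the irradiated library. Of the 92 wild-type irradiated cells, 42 were above the highest wild-type non-irradiated cell, which was at 7.90, and no Chek2-/- cell was. That cell stood alone, since the next highest of its library was at 3.33, and 76 of the 92 were above 3.33, a limit chosen after the values were seen, and again no Chek2-/- cell was. The medians of Ppm1d, Ccng1 and Trp53inp1 were 0.264, 0.239 and 0.290 without and 0.711, 0.751 and 0.625 with irradiation in wild-type cells. For Mdm4 they were 2.23 and 2.01, and for Ccng2 0.154 and 0.0550. Cells of 1 library share their animals and are not replicates.

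**Figure D5:**
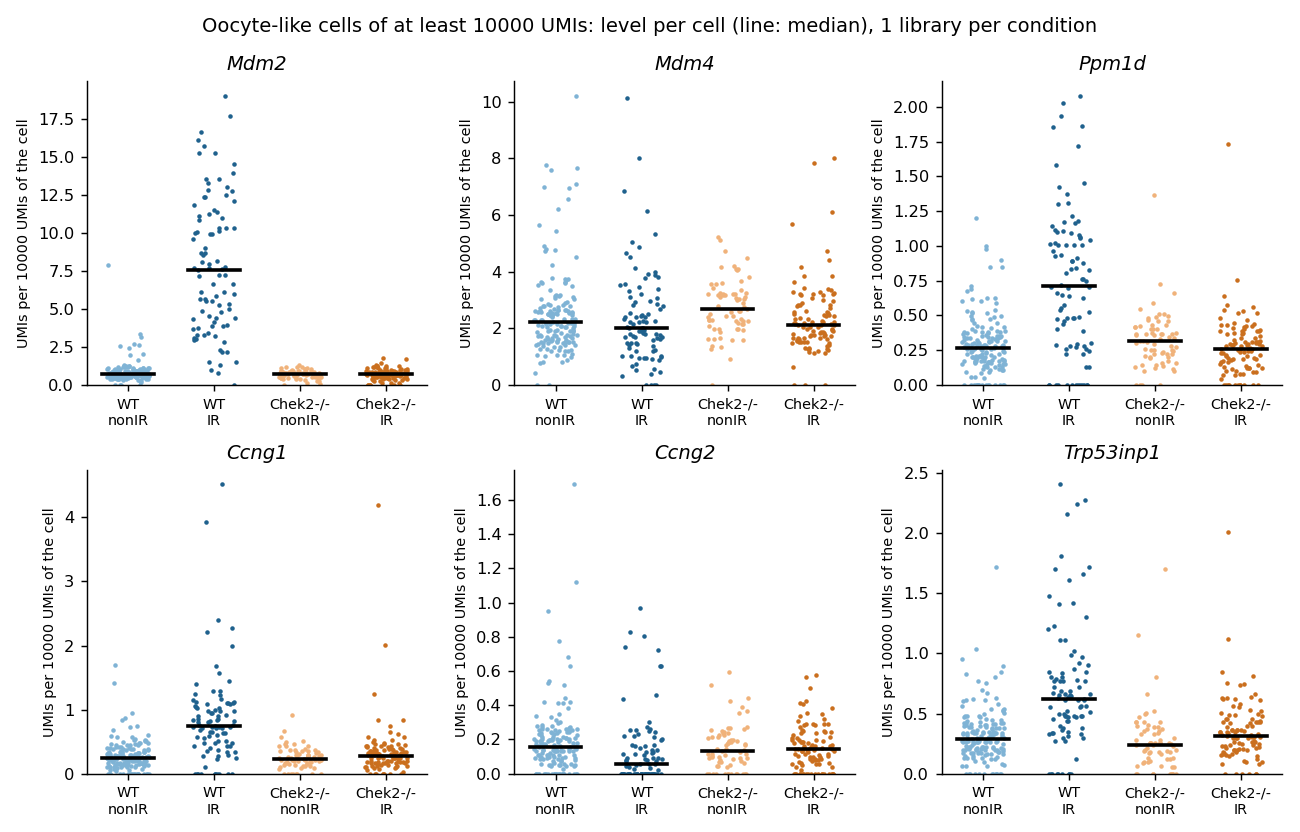
UMIs per 10000 UMIs of the cell (y axis) in each oocyte-like cell of at least 10000 UMIs, by library (x axis), with the median as a line and 1 library per condition. For Mdm2 the wild-type irradiated cells have a median of 7.59 and the other 3 libraries medians of 0.715 to 0.741.

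Oocyte-like cells were clustered again. One sub-cluster of 63 cells held wild-type irradiated cells alone, with a Mdm2 level of 10.1 and a Ppm1d level of 0.961, and was led by Cst6, Slc6a8, Cbr2 and Fermt3. It had no non-irradiated cells to compare with. These genes were also among the leading genes of a sub-cluster of 36 cells of low depth (median 2966 UMIs), in which 15 wild-type irradiated cells had a Mdm2 level of 10.9 (8.77 to 13.5), 18 Chek2-/- irradiated cells had 1.05 (0.452 to 2.06), and 2 wild-type non-irradiated cells held 0 Mdm2 UMIs of 3695 UMIs in all, too few for a level. A sub-cluster of 38 cells passed 4 markers of growing oocytes, the most of any sub-cluster. It held 17 wild-type non-irradiated and 0 wild-type irradiated cells, so it gave no wild-type ratio. The sub-cluster with the highest level of Gdf9, a gene of growing oocytes (51.3 UMIs per 10000), passed 2 of those markers. Its 37 non-irradiated and 17 irradiated wild-type cells had Mdm2 levels of 1.11 and 3.89, a ratio of 3.49 (3.07 to 3.99). There Ppm1d had a ratio of 1.21 (0.860 to 1.72), Ccng1 of 1.69 (1.28 to 2.24), Trp53inp1 of 1.50 (1.16 to 1.94) and Mdm4 of 0.959 (0.890 to 1.03). Ccng2 had 1.16 (0.779 to 1.72) there, and its level in the sub-cluster of 63 cells was 0.0725. In a sub-cluster of 48 and 28 wild-type cells, which also passed 6 granulosa markers, the Mdm2 levels were 0.862 and 4.41, a ratio of 5.12 (4.57 to 5.74), on 8318103 and 1214077 UMIs in all. The other pair of sub-clusters with at least 10 cells in both wild-type libraries had Mdm2 ratios of 6.24 (3.94 to 9.49) and 7.23 (5.39 to 9.72). The first held 2477427 UMIs in 23 non-irradiated cells and 51420 UMIs in 11 irradiated cells, and the second 1506614 UMIs in 13 and 267279 UMIs in 37 cells, and the second passed markers of granulosa-like and fibroblast-like cells. In these sub-clusters the cells of the 2 libraries thus differed in depth, and since the 63 cells with the Mdm2 level of 10.1 and the 15 with 10.9 fall in other sub-clusters, the lower ratios of the others are no measure of the response of comparable cells.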

How the data were processed

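Juvenile ovaries, wild-type or Chek2-/-, were compared 6 h after 0.5 Gy or sham treatment, in 24 bulk libraries (6 per group) and 4 single-cell libraries (1 per condition), grouped by the labels. The members and gene lists were chosen with earlier results of these data known.

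For bulk RNA the authors ran nf-core/rnaseq with Trim Galore 0.6.5 and Salmon 1.3.0 and deposited estimated counts per gene, not scaled between libraries. The transcript set their methods name and the mm10 of the labels differ, so positions were taken from GRCm38, the build of the single-cell files. The single-cell files hold whole UMI counts for each gene and barcode, which the authors made with Cell Ranger (mm10) and deposited before their filters on cells. The file header names another Cell Ranger version than the methods. Polyadenylated RNA was captured in both, so levels are of such transcripts alone.

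Estimated counts were rounded to whole numbers, and the 26790 genes with at least 10 counts over the 24 libraries were fitted with edgeR 4.0.16 (R 4.3.3; TMM, quasi-likelihood, 1 coefficient per group, no covariate) and adjusted by Benjamini-Hochberg. CPM values use TMM-scaled library sizes. The design allows tests over 6 libraries per group, whose spread sets the error. Replicate numbers were not taken to pair the libraries, since not every same-numbered pair correlated over 0.1.

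Cells were kept with at least 1000 genes, at most 20% of UMIs from mitochondrial and at most 50% from ribosomal genes, and doublets were removed with Scrublet in scanpy 1.11.5 (4.28% to 5.28% of cells, where the authors used other callers). Clusters came from 30 principal components of 2000 variable genes, leaving out 95 genes (the members and the pathway lists), and 15 neighbours (Leiden, resolution 0.5). Marker limits were set after the clusters were seen. A marker counted in at least 25% of cells at 2-fold over the median cluster, a name needed 60% of a list and at least 3 markers, and clusters under 100 cells stayed unnamed. Ratios of summed UMIs carry exact 95% intervals of counting error.

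Named genes were the members, Chek2, per list up to 3 called genes with the smallest adjusted p in wild-type ovaries, and per called member the 3 most alike. Genes of these lists called in the other comparisons were named after their values were seen. limma 3.58.1, DESeq2 1.42.0 and Python 3.11.15 were also used, and the edgeR fit of bulk counts alone was tested on simulated data.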

Additional observations from a re-analysis of the deposited data

Results flagged for a closer look

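The effect of irradiation differed between the genotypes for 4 of the 6 genes, by the interaction test of edgeR, against 1.03% of all genes. The 6 genes were chosen with earlier results of these data known, so this count is no independent test. The wild-type effect was larger by 1.31 for Mdm2, 1.47 for Ccng1, 0.40 for Ppm1d and 1.04 for Trp53inp1, all on the log2 scale. For each of them all 6 irradiated wild-type libraries were above all 6 non-irradiated ones, which was not counted over all genes.

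Of 28 groups of 6 libraries examined for a library apart from the others (the 6 genes and Chek2 in 4 groups), 1 had one, where chance gives about 1 in 20. Mdm4 was at 342 CPM in Chek2-/- irradiated replicate 6, and the next lowest library of its group was at 421 CPM. The same library had the lowest oocyte marker sum of its group, 1024 CPM, and the part of this in the Mdm4 value was not tested.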

How the results depend on the processing

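Of 786 values of the 6 genes under alternative settings of the bulk tests (other scaling, filters, tools, samples and each library left out), 776 kept their side of the threshold. Every called value kept its direction, while 43 values that were not called took the other sign, all of them at most 0.068 in size on the log2 scale. The other 10 were the higher Trp53inp1 of non-irradiated Chek2-/- ovaries, which was called in 23 of 33 settings. It was not called, and 0 of the 6 genes passed, with the replicate numbers as a block (log2 0.32, edgeR adjusted p = 0.0590), with the 2 groups alone (0.31, edgeR adjusted p = 0.0932), by limma-voom (0.32, adjusted p = 0.0514), or without wild-type replicates 2, 3 or 4 or Chek2-/- replicates 1, 2, 3 or 4 (0.28 to 0.32, edgeR adjusted p = 0.0640 to 0.108). The cause was not tested. With each library left out, the genes called stayed at 4 to 4 in wild-type ovaries, 1 to 1 in Chek2-/- ovaries and 4 to 4 for the interaction, and at 0 to 1 between genotypes. Replicate numbers were taken as names, since the deviations of same-numbered libraries correlated over 0.1 in 10 of 18 pairs (-0.047 to 0.657) and not in all. Of 18, 7 correlated best with their own number, 4 of them among the 6 pairs of non-irradiated and irradiated Chek2-/- libraries, where 5 of 6 were over 0.1, a hint from the data of shared numbers there. The 5 libraries apart in marker sums, left out together as an alternative chosen after seeing the data, left 4, 1, 4 and 1 of the 6 genes called in the 4 comparisons. Over all genes 873, 1, 241 and 2573 of 26019 were called there, so the last count is not read as a result about the 6 genes. The block changed no other call of the 6 genes.

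Counts over all genes moved more. After irradiation in wild-type ovaries 646 became 1009 without both Chek2-/- libraries lowest in oocyte markers. In Chek2-/- ovaries 3 became 14 by DESeq2, 1 with the 2 groups alone or without the 5 libraries apart in marker sums, and 5 without wild-type irradiated replicate 6. For the interaction 277 became 458 by DESeq2. Between genotypes 1430 became 785 with the 2 groups alone, 2507 by DESeq2, 2573 without the 5 libraries, and 675, 716, 573 and 807 without wild-type replicates 2, 3 and 4 and Chek2-/- replicate 1.

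Of 432 single-cell ratios under 4 alternatives, 423 lay within the counting interval. With each cell given the same weight the ratios were 8.90 (Mdm2), 0.680 (Mdm4, reversed), 4.41 (Ccng1) and 2.39 (Trp53inp1) in wild-type oocyte-like cells, 0.813 (Mdm4) in Chek2-/- oocyte-like cells, 1.62 (Mdm2) and 5.50 (Ccng1) in wild-type granulosa-like cells and 0.489 (Ccng2) in wild-type epithelial-like cells. With doublets kept, Trp53inp1 in wild-type granulosa-like cells had 3.21, where 9832 cells were granulosa-like and 3694 unnamed. Of the 92 wild-type irradiated oocyte-like cells, 42 were above all non-irradiated ones in Mdm2 and 76 without the highest of these, an alternative chosen after seeing the data. Depth limits classes of few cells, such as macrophage-like and erythroid-like cells.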
